A study of Homo sapiens with 30 samples.

Results

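The genes described here are the numbered zinc-finger genes of human chromosome 19: every row of the deposited count table on that chromosome whose symbol is ZNF followed by a number, with at most 1 letter after it. The rule found 263 of the table's 60664 genes, of which 246 are annotated as protein-coding and 17 as pseudogenes. The cells were Flp-In T-REx HEK293, an established epithelial line from human embryonic kidney, carrying a stably integrated, tetracycline-inducible GFP-TIA1a. TIA1 is an RNA-binding protein of stress granules, the RNA and protein assemblies that form when translation stalls. The WT line made the wild-type protein, and the WDM line the form with the Welander distal myopathy mutation. Total RNA depleted of ribosomal RNA was sequenced with strand information from 30 libraries in 10 groups of 3. The 18 cytosol libraries came from each line left untreated, given tetracycline alone, or given tetracycline and then 0.5 mM sodium arsenite for 60 min. The 12 libraries of stress granule cores, pulled down on a nanobody resin that binds GFP, came from each line given tetracycline with or without arsenite. Each genotype was 1 line, so the mutation and the line cannot be told apart, and whether a line was 1 clone is not given in the sources used here. Nothing in the labels says that the 3 replicates of a group were separate cultures, so p-values measure the spread between these samples, which may be technical. In RNA from bulk cells, fewer cells with a transcript and less transcript per cell cannot be told apart.

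Most of these genes encode proteins with a KRAB domain followed by a tandem array of C2H2 zinc fingers. The fingers bind DNA, in many cases sequences of transposable elements, and the KRAB domain recruits the corepressor TRIM28 (KAP1), which in turn brings the histone methyltransferase SETDB1 and heterochromatin proteins of the HP1 family. The genes arose by tandem duplication and sit in clusters of close relatives, with reading frames and promoters that resemble each other. Splitting the 263 genes wherever neighbours lay more than 1 Mb apart gave 17 clusters, and the 7 clusters with at least 10 members held 240 of them.

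The promoters below are shown because 3 of the genes had much lower RNA in the WDM line in all 5 comparisons of the lines, while the neighbour ZNF91 did not. All are in the cluster at 19.67 to 24.13 Mb. Each sequence is the 250 bases before the RefSeq gene start (GRCh38.p14), written 5′ to 3′ on the gene's strand, with CG pairs, the sites of DNA methylation, in capitals. The RefSeq start of ZNF730 lies inside the span of the gene as counted (chr19:23075210-23147221), so its stretch is not upstream of the counted gene. The end of the ZNF257 stretch also runs into the span of ZNF257 as counted.
ZNF486, chr19:20166964-20167213, + strand: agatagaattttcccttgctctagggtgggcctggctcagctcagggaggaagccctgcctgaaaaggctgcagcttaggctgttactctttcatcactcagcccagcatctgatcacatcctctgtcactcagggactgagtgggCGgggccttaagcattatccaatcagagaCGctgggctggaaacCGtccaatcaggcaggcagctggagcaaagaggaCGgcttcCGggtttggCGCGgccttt
ZNF257, chr19:22052234-22052483, + strand: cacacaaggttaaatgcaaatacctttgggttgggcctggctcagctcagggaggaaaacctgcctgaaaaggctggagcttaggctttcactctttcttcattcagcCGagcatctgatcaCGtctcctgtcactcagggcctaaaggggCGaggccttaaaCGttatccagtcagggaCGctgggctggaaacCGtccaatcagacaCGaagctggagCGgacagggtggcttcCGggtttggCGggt
ZNF730, chr19:23116775-23117024, + strand: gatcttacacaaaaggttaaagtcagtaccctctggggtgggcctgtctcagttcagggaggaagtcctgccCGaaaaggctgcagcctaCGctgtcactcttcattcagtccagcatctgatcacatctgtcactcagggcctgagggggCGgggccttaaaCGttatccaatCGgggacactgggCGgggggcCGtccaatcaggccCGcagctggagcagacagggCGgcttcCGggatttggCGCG
ZNF91, chr19:23395472-23395721, − strand: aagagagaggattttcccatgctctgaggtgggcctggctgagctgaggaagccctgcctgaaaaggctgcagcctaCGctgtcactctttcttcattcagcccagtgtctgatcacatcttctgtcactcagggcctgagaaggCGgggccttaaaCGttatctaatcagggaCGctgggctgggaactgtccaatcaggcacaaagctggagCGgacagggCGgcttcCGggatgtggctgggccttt
RefSeq promoters were matched by symbol for 216 of the 263 genes. Promoters were aligned globally, with gaps at the ends and mismatches at no cost. Identity is the number of identical bases as a percent of 250. The ZNF91 promoter was 80.4% identical to that of ZNF257, 85.2% to that of ZNF486 and 78.8% to that of ZNF730. The ZNF257 and ZNF730 promoters were 82.0% identical, ZNF257 and ZNF486 79.6%, and ZNF486 and ZNF730 78.8%. Over the 28 matched promoters of this cluster, ZNF91 left out, identity to ZNF91 ran from 47.6% to 87.6% with a median of 80.6%. The 187 matched promoters of the other clusters ran from 38.4% to 60.4% with a median of 44.4%. The 4 sequences hold 7 (ZNF486), 10 (ZNF257), 12 (ZNF730) and 7 (ZNF91) CG pairs. Of all 35116 RefSeq promoters at the same length, 58.9% hold at least 7 CG pairs, 52.2% at least 10 and 48.5% at least 12. The median was 16 CG pairs over the matched ZNF genes and 11 over all promoters. The data hold no methylation measurement, and the ZNF91 and ZNF486 sequences have the same CG count.

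Many of the 263 genes could not be measured, and overlap with a neighbour went along with that. Counts over all 30 libraries were 0 for 30 genes, and each of these 30 had over 90% of its exons, by length, within the span of another gene on that strand (GENCODE 44). Among them were ZNF8, ZNF17, ZNF71, ZNF177, ZNF222, ZNF223, ZNF229, ZNF443, ZNF585A, ZNF625, ZNF700 and ZNF816. Of the 48 genes with over 90% of their exon length inside another gene, 39 had at most 30 counts in all and only 5 could be tested. Of the 157 genes with no such overlap, 138 could be tested, with a median of 12112 counts over all libraries. The same held across the table: 353 of 425 protein-coding genes (83.1%) that lie over 90% inside another gene's span, but under 10% in its exons, had at most 30 counts, against 3203 of 15925 (20.1%) with no overlap. A total of 0 for these 30 genes therefore says nothing of whether they are expressed.

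Another 19 untested genes had no overlap and few counts, among them ZNF132, ZNF135, ZNF154, ZNF534, ZNF541, ZNF556 and ZNF560. In all, 195 of the 263 genes passed the low-count filter in at least 1 of the 3 fits described below, 191 passed in all 3, and the 68 that passed in none had at most 91 counts each. Of the genes tested, 32 have over 10% of their exon length inside the span of another gene on the same strand. Their counts are uncertain, as are those of near-identical relatives. For named genes, the part of the exon length shared with exons of another gene is given where it is over 10%.

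**Figure D1:**
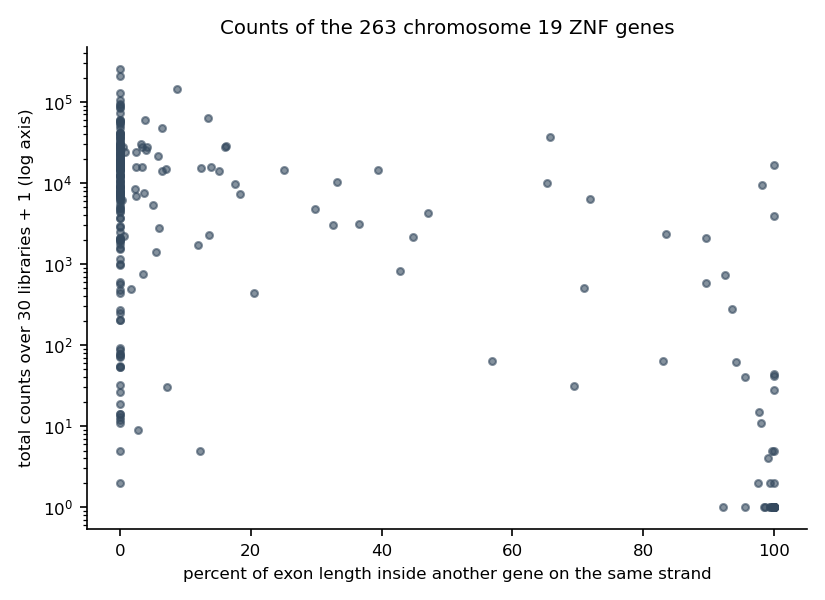
Total counts over the 30 libraries plus 1 (log axis) against the percent of exon length that a gene on that strand overlaps, 1 point per gene, all 263 genes. The 30 genes without a count lie in the lower right corner, above 90% overlap.

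Library totals ran from 5906167 to 27419145 counts. Levels are given as CPM, counts scaled to a common library total, and differences as log2 fold changes with standard errors (SE) from edgeR's quasi-likelihood test. That test was fitted on all genes in 3 fits, 1 of the 18 cytosol libraries (16670 genes), 1 of the 12 granule libraries (18366 genes) and 1 of the 24 libraries given tetracycline (18141 genes), with 192, 194 and 194 of the 263 genes. A gene is called higher or lower at an adjusted p under 0.05 (Benjamini-Hochberg over all genes of the fit). TIA1 itself was counted at 0 to 0.0738 CPM in every library, so its counts do not check the lines' labels. Markers of HEK293 and kidney cells (10 of 10 with counts, PAX8 at 17 and NEFM at 54 counts in all) summed to 1170 to 1590 CPM in cytosol and 617 to 827 CPM in granules. Fibroblast markers reached at most 9.08 CPM, blood markers 2.35 and endothelial markers 3.22. Muscle markers (DES, MYH3 and ACTC1) summed to 3.55 to 6.94 CPM in cytosol without arsenite, 9.40 to 10.5 CPM in cytosol with it, and 10.2 to 17.2 CPM in granules. Nearly all of that sum was MYH3, with 4801 counts in all beside 96 for DES and 15 for ACTC1. Mean DES was 0.366 CPM in cytosol and 0.0697 CPM in granules, and mean ACTC1 0.0379 and 0.0268 CPM, so neither was higher in granules.

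Together the 263 genes took a larger share of the cytosol libraries with each treatment. Their summed level was 7087, 7156 and 7229 CPM (lowest, median and highest library) in untreated WT cytosol and 7227, 7249 and 7278 CPM in untreated WDM cytosol. With tetracycline it was 8082, 8095 and 8112 CPM in WT and 7559, 7598 and 8004 CPM in WDM. With arsenite it was 8999, 9036 and 9059 CPM in WT and 8634, 8810 and 9128 CPM in WDM. The 3 treatments did not overlap within either line, and the WT line was above the WDM line only with tetracycline alone. With library totals alone as the scaling, the median log2 difference of all genes with arsenite in cytosol was 0.11 in WT and 0.08 in WDM. Over the ZNF genes tested it was 0.19 and 0.24. With tetracycline the medians were −0.04 and −0.02 over all genes and 0.16 and 0.07 over the ZNF genes. In granules the sum was 8525 to 10410 CPM in WT and 8756 to 9522 CPM in WDM without arsenite, and 10750 to 12870 CPM in WT and 9619 to 10520 CPM in WDM with it. Per kilobase of exon, the most abundant in cytosol were ZNF146 with a mean of 156 CPM per kilobase, ZNF428 with 58.7, ZNF227 with 47.7, ZNF460 with 42.0 and ZNF155 with 33.1. ZNF146 is a KRAB-less protein made almost wholly of zinc fingers.

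The first question was how the 2 lines differ. The largest differences were losses of RNA in the WDM line, most of them in 1 cluster. In untreated cytosol 19 of the 192 genes tested were lower in WDM and 6 higher, against 5.60% lower and 4.19% higher of all genes tested. In tetracycline cytosol 34 were lower and 4 higher (all genes 6.84% and 5.80%), and in arsenite cytosol 25 lower and 7 higher (5.37% and 4.98%). In granules of 194 tested 15 were lower and 4 higher with tetracycline alone (2.95% and 2.60%), and 35 lower and 3 higher with arsenite (3.84% and 4.11%). Median log2 differences over the ZNF genes tested were −0.03, −0.12, −0.04, −0.06 and −0.29 in that order, while the medians over all genes were 0.00, 0.00, 0.01, 0.00 and −0.00. The ZNF genes of other chromosomes had 21 lower of 229 tested in untreated cytosol, 27 in tetracycline cytosol, 26 in arsenite cytosol, and 11 and 20 of 235 in the granule comparisons. The other protein-coding genes of chromosome 19 had 73 lower of 713 in untreated cytosol (10.2%, beside 9.9% of the ZNF genes), 82 in tetracycline cytosol (11.5%, beside 17.7%) and 82 in arsenite cytosol (11.5%, beside 13.0%). In granules these other genes had 40 lower and 7 higher of 754 with tetracycline alone, and 5 lower and 44 higher with arsenite. These 5 comparisons of the lines share no libraries with each other.

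Across the 5 comparisons, 12 genes were lower in WDM in all 5, 8 in 4, 4 in 3, 4 in 2 and 16 in 1. How many of all genes were lower in as many comparisons was not counted. Of the 12, 8 lie in the cluster at 19.67 to 24.13 Mb (ZNF43, ZNF93, ZNF253, ZNF257, ZNF486, ZNF676, ZNF730, ZNF738). The others are ZNF528, ZNF600 and ZNF880 in the cluster at 51.57 to 53.58 Mb and ZNF671 in the last cluster. The cluster at 19.67 to 24.13 Mb has 42 of the 263 genes, 32 of them tested, and 9, 14, 11, 10 and 12 were lower in the 5 comparisons. In the same order 6, 6, 7, 6 and 7 of its genes were lower by at least 3 on the log2 scale, a size at which all genes were not counted. By at least 1 on that scale, 9, 10, 10, 10 and 10 of its genes were called lower. Of all genes, 199, 156 and 154 of 16670 in cytosol and 244 and 197 of 18366 in granules were called lower by at least 1. The cluster at 51.57 to 53.58 Mb (33 of 42 tested) had 5, 10, 7, 4 and 13 lower, and the small cluster at 2.82 to 2.945 Mb (4 of 5 tested) had 3, 4, 4, 0 and 4. Outside these 3 clusters, which were picked out after the values were seen, 2, 6, 3, 1 and 6 genes were lower and 4, 4, 6, 3 and 2 higher, of 123 tested in cytosol and 125 in granules. Of the 4 other genes tested in cytosol inside the 19.67 to 24.13 Mb interval 0 were called, and in granules 2 of 9 were lower in each comparison. The 1 other gene tested inside the 2.82 to 2.945 Mb interval was called lower in all but tetracycline granules. Its log2 differences were −0.71, −0.97, −1.12, −0.76 and −1.07. Of 9 others inside the 51.57 to 53.58 Mb interval, 1 was lower in tetracycline cytosol and 1 higher in arsenite granules.

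**Figure D2:**
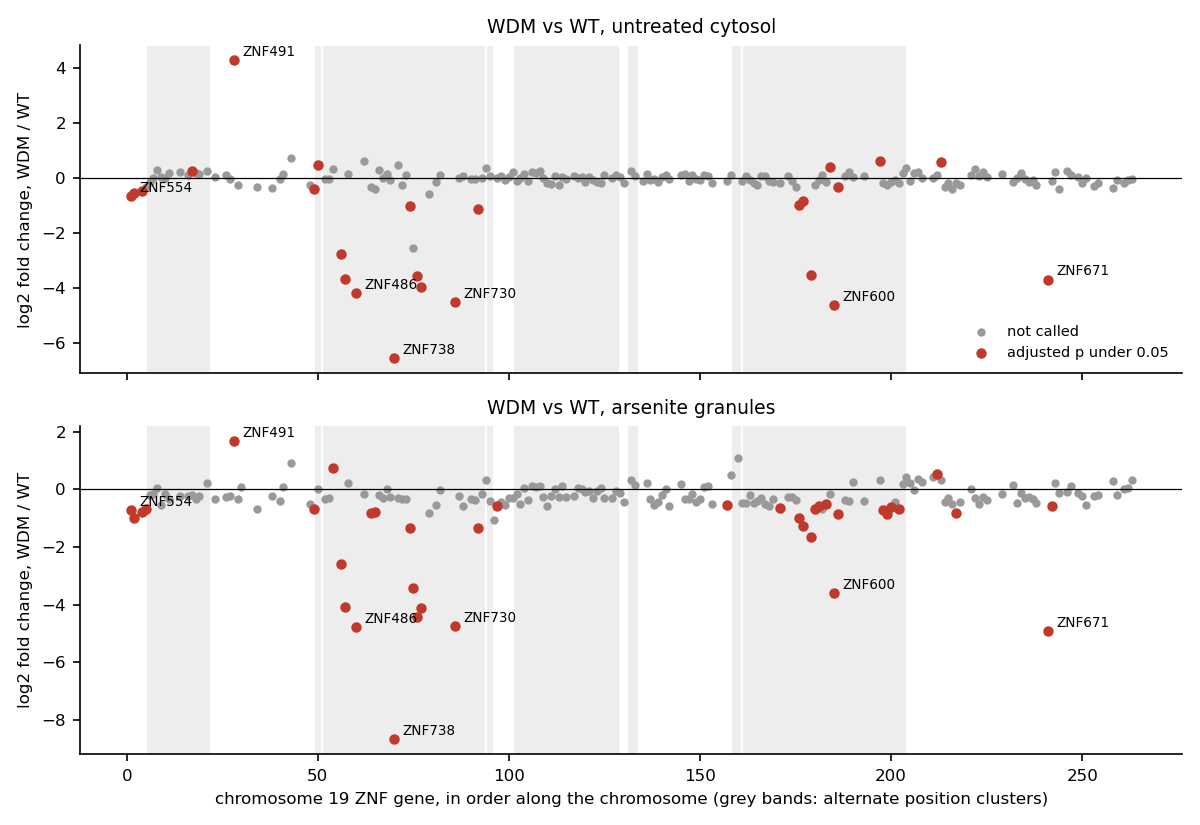
Log2 fold change of WDM over WT for each tested ZNF gene, in gene order along chromosome 19, in untreated cytosol (top) and arsenite granules (bottom), with called genes in red and alternate position clusters shaded. Of the called genes ZNF738 lies lowest in both panels and ZNF491 highest. ZNF486 and ZNF730 of the ZNF738 cluster also lie low, among genes of that cluster that were not called. ZNF600 and ZNF671 of other clusters lie low too. Where a group is at or near 0 counts, as for ZNF738 and ZNF671, the plotted value depends on the fit's prior count.

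ZNF738 (ENSG00000172687, chr19:21358930-21388582, GRCh38) was close to absent in the WDM line. Its level in untreated cytosol was 5.03, 5.26 and 6.37 CPM in the WT libraries and 0.140, 0 and 0 CPM in the WDM libraries, a rate ratio of 110 with a counting interval of 29.8 to 912 (exact binomial, 95%). With tetracycline the WT libraries held 7.46, 9.92 and 7.70 CPM and with arsenite 8.16, 10.8 and 7.71 CPM, while all 6 WDM libraries were at 0. The WDM group was thus at least 105-fold and 134-fold lower, setting 3 counts over the group as the limit that a count of 0 allows. In granules the 3 WT libraries held 9.33 to 11.7 CPM without and 11.4 to 14.9 CPM with arsenite. The WDM libraries held 0.0992, 0 and 0 CPM and 0.0902, 0 and 0 CPM, rate ratios of 420 (75 to 16600) and 473 (130 to 3910). No WDM library reached any WT library, and edgeR's adjusted p for ZNF738 lay between 6.02e-08 and 4.26e-14. Of its exon length 18.3% lies in exons of another gene on the same strand, and intervals and limits from counts cover counting error only.

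ZNF486 (ENSG00000256229, chr19:20167214-20200488) has no such overlap. Its level in untreated cytosol was 9.26, 6.42 and 7.91 CPM in WT and 0.418, 0.515 and 0.350 CPM in WDM, a log2 difference of −4.20 (SE 0.33, edgeR adjusted p = 1.34e-08). With arsenite the cytosol libraries held 11.6, 9.68 and 12.3 CPM in WT and 0.328, 0.597 and 0.226 CPM in WDM, a log2 difference of −4.79 (SE 0.308). Every WDM library thus stood more than 10-fold under every WT library in both. In granules its log2 difference was −3.54 (SE 0.364) with tetracycline alone and −4.79 (SE 0.35) with arsenite. ZNF730 (ENSG00000183850, chr19:23075210-23147221) read 5.62, 6.53 and 5.40 CPM in untreated WT cytosol and 0.558, 0.0736 and 0.0875 CPM in WDM, a log2 difference of −4.51 (SE 0.406). In arsenite granules it read 10.4, 5.51 and 7.87 CPM in WT and 0.316, 0.373 and 0.255 CPM in WDM, a log2 difference of −4.74 (SE 0.335). WT and WDM libraries of ZNF730 were far apart in both fractions.

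ZNF257 (ENSG00000197134, chr19:22052430-22091480) and ZNF676 (ENSG00000196109, chr19:22179089-22215801) are neighbours in the same cluster. The level of ZNF257 in untreated cytosol was 5.42, 5.90 and 4.92 CPM in WT and 0.628, 0.442 and 0.262 CPM in WDM, a log2 difference of −3.58 (SE 0.295). Its log2 difference was −4.12 with tetracycline and −3.79 with arsenite in cytosol, and −3.70 and −4.44 in granules. ZNF676 had log2 differences of −3.96, −3.87 and −4.06 in the 3 cytosol comparisons and −3.17 and −4.13 in granules. The libraries of the lines did not overlap for either gene. ZNF93, whose protein is known to bind LINE-1 elements, was low in WT too, with 2.37, 1.90 and 1.74 CPM in untreated WT cytosol and 0.0697, 0.221 and 0.175 CPM in WDM, a log2 difference of −3.66.

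Other genes of the same cluster were lowered less or not at all, which was looked at after the values were seen. ZNF253 read 12.7, 11.8 and 11.6 CPM in untreated WT cytosol and 2.58, 1.40 and 1.31 CPM in WDM, a log2 difference of −2.78. ZNF43 read 45.8, 48.2 and 46.2 CPM in WT and 24.6, 22.3 and 24.1 CPM in WDM, a log2 difference of −1.02 (SE 0.0968, edgeR adjusted p = 2.81e-07). Both pairs of groups were apart, by about 6.85-fold for ZNF253 and 2.02-fold for ZNF43. ZNF91, whose protein is known to bind SVA elements, read 63.8, 57.8 and 59.3 CPM in WT and 66.5, 66.3 and 62.8 CPM in WDM. Its groups overlapped and it was not called in untreated or arsenite cytosol or in either granule comparison. The only call for ZNF91 was in tetracycline cytosol, with a log2 difference of −0.41 (edgeR adjusted p = 0.00389) and overlapping libraries. Its uncalled log2 differences in granules were −0.50 with tetracycline alone and −0.58 with arsenite. ZNF208 was called lower in 4 of the 5, with log2 differences of −3.17 and −4.17 in tetracycline and arsenite cytosol and −2.85 and −3.44 in granules, and shares 20.5% of its exon length with another gene.

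Outside this cluster ZNF600 (ENSG00000189190, chr19:52749942-52786807) was much lower in WDM. Its level in untreated cytosol was 5.91, 6.42 and 4.73 CPM in WT and 0.349, 0.221 and 0.0875 CPM in WDM, a log2 difference of −4.62 (SE 0.32, edgeR adjusted p = 1.9e-09). In the other 4 comparisons the log2 difference of ZNF600 ran from −4.47 to −3.61. Its WDM libraries stayed at or under 0.657 CPM and its WT libraries at or above 3.75 CPM throughout. The cluster's ZNF528 and ZNF880 fell much less, with log2 differences of −0.85 and −0.97 in untreated cytosol and −1.28 and −0.98 in arsenite granules. ZNF671, a gene with 204 counts in all, had 0 counts in the 6 WDM cytosol libraries given tetracycline, so WDM was at least 11.2-fold lower with tetracycline and at least 19.8-fold lower with arsenite. In the small cluster at 2.82 to 2.945 Mb, ZNF57, ZNF554 and ZNF555 had log2 differences of −0.48, −0.66 and −0.56 in untreated cytosol. Their differences were −0.80, −0.73 and −0.98 in arsenite granules, and none of the 3 was called in tetracycline granules.

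Few genes were higher in the WDM line, and 1 was so in all 5 comparisons. ZNF491 (ENSG00000177599, chr19:11797667-11809622) read 0.197, 0.105 and 0 CPM in untreated WT cytosol and 2.09, 2.36 and 2.01 CPM in WDM, a rate ratio of 21.6 (7.15 to 107). With tetracycline it read 0.148, 0.161 and 0 CPM in WT and 1.00, 2.50 and 2.17 CPM in WDM, a rate ratio of 19.3 (7.24 to 72.7). The WDM libraries of ZNF491 lay above the WT libraries in every group, with a smaller log2 difference of 1.92 and 1.68 in granules. The pseudogene ZNF542P was higher in 4 of the 5 with log2 differences of 0.40 to 0.67, but its whole exon length (100%) is shared with a second entry of that name. ZNF677 was higher by 0.63 in untreated cytosol, 0.56 in arsenite cytosol and 0.79 in tetracycline granules on the log2 scale, the last not called with the replicate block or GC offsets. ZNF333 was higher by 0.48 in untreated cytosol and ZNF444 by 0.54 in arsenite granules, and both calls were lost for 4 or more choices of a left-out library. ZNF56 was higher by 0.74 in arsenite granules, with 97.9% of its exon length shared.

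**Figure D3:**
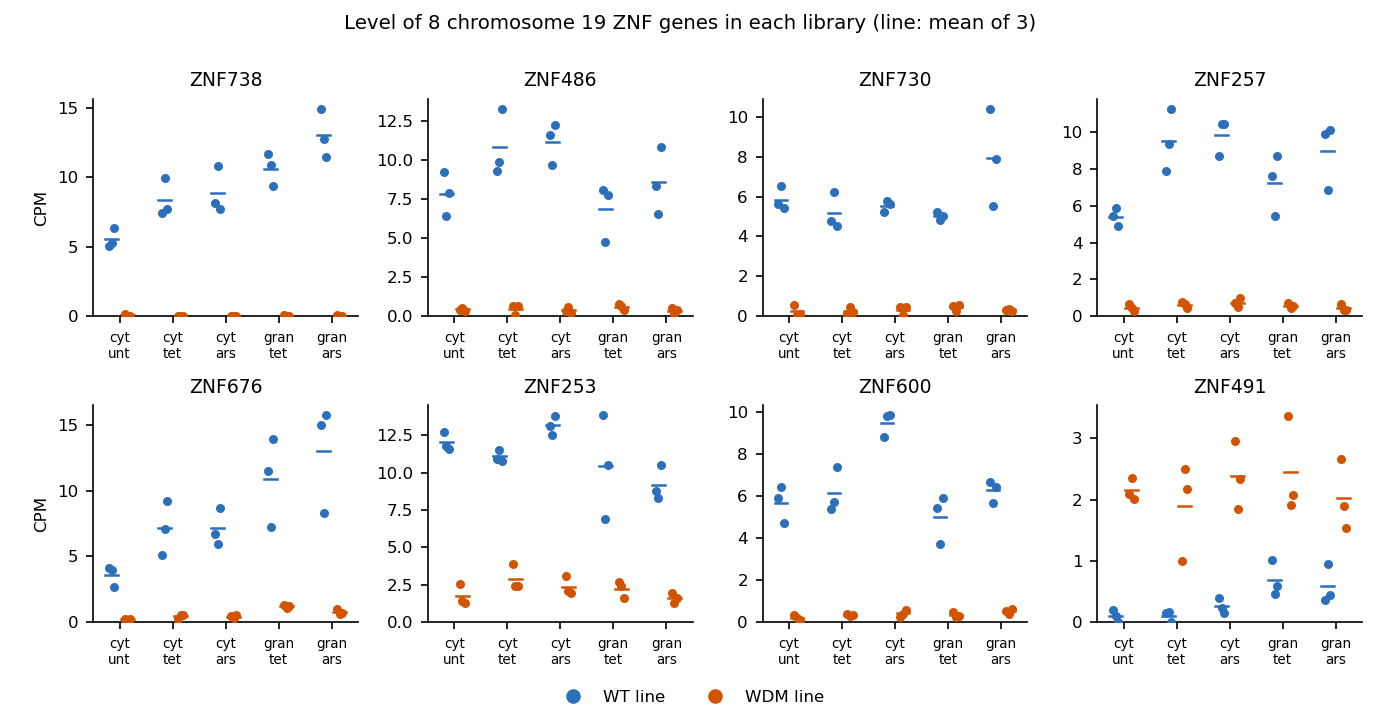
CPM in each library of 8 genes, by fraction and treatment (unt, untreated; tet, tetracycline; ars, tetracycline and arsenite), for the WT (blue) and WDM (orange) lines, with a line at the mean of 3. For ZNF738, ZNF486, ZNF730, ZNF257, ZNF676, ZNF253 and ZNF600 all WDM points lie under all WT points in each of the 5 settings, and for ZNF491 above them.

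In untreated cytosol the summed level of 6 nuclear RNAs, MALAT1 and NEAT1 among them, was 406 to 482 CPM in WT and 699 to 766 CPM in WDM, and their part in the differences was not tested. With tetracycline they were 614, 274 and 267 CPM in the 3 WT libraries and 745, 388 and 639 CPM in WDM. The total of 38 ZNF genes called in tetracycline cytosol became 61 (8 higher, 53 lower) without WT replicate 1, the WT library highest in nuclear RNA. In arsenite granules the 38 called became 20 without WT replicate 1 and 22 without WDM replicate 1. ZNF486 and ZNF738 stayed called in each fit that left out 1 library. Whether the line difference changed with arsenite in cytosol was tested directly: 0 of the 192 ZNF genes and 0% of all genes were called by edgeR, with 2 ZNF genes at an unadjusted p under 0.05. The 2 with the smallest p were ZNF577 (0.33, SE 0.123) and ZNF714 (0.30, SE 0.115), each at an adjusted p of 1. Whether it differed between granules and cytosol gave 0 ZNF genes with tetracycline and 0 with arsenite (0.00551% of all genes in each), with 8 and 19 at an unadjusted p under 0.05, and DESeq2 also called 0 in these 3 tests. Smallest in p were ZNF726 (0.61, SE 0.244) and ZNF331 (−0.39, SE 0.156) with tetracycline, both at an adjusted p of 0.833. With arsenite they were ZNF549 (−0.55, SE 0.182) and ZNF614 (−0.64, SE 0.22), both at an adjusted p of 0.741.

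Tetracycline, which switches on the GFP-TIA1a transgene, went with higher RNA of a set of ZNF genes in both lines. In WT cytosol 34 of 192 were higher and 0 lower than untreated, against 2.93% higher and 2.39% lower of all genes. In WDM cytosol 20 were higher and 3 lower, against 3.07% and 3.23%. The median log2 difference was 0.20 in WT, with 151 of the 192 above 0, and 0.10 in WDM, with 131 above 0, while the medians of all genes were −0.00 and 0.00. Of the genes called higher, 16 were shared, 47.1% of those in WT and 80.0% of those in WDM. The ZNF genes of other chromosomes had 13 higher and 8 lower in WT and 13 and 11 in WDM, of 229. No tetracycline-treated cells without the transgene are among the groups, so the drug and the protein cannot be told apart. Mitochondrial RNA summed to 889 to 1030 CPM in untreated and 521 to 881 CPM in treated WT cytosol, and to 1060 to 1260 and 689 to 798 CPM in WDM, without overlap in either line. The 6 nuclear RNAs summed to 406 to 482 CPM in untreated WT and to 614, 274 and 267 CPM in treated WT, and to 699 to 766 and then 745, 388 and 639 CPM in WDM. The part of either in the ZNF differences was not tested.

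A pair of neighbours in the last cluster stood out in both lines. ZNF805 (chr19:57240632-57262728) read 26.9, 25.3 and 27.7 CPM in untreated and 64.3, 49.1 and 40.1 CPM in treated WT cytosol, a log2 difference of 0.98 (SE 0.124, edgeR adjusted p = 0.000382). In WDM it read 32.6, 36.1 and 33.6 CPM and then 63.5, 52.3 and 59.1 CPM, a log2 difference of 0.80 (SE 0.12). ZNF264 (chr19:57191500-57222846) read 55.7, 54.4 and 54.5 CPM in untreated and 114.5, 87.1 and 106.8 CPM in treated WDM cytosol, a log2 difference of 0.93 (SE 0.0962, edgeR adjusted p = 1.85e-05). In WT ZNF264 was higher by 0.73 on the log2 scale. The treated libraries of both genes lay above all untreated ones in each line. ZNF805 shares 13.5% of its exon length with another gene.

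Further rises were ZNF880 (log2 difference 0.74 in WT, 0.82 in WDM), ZNF677 (0.82 and 0.52) and ZNF776 (0.61 and 0.52, with 11.6% of its exon length shared). ZNF676 and ZNF257, both low in WDM, rose by 1.03 and 0.86 in WT, and each call was lost without some of the single libraries. The 3 genes lower in WDM were ZNF493 (−0.70), ZNF302 (−0.36) and ZNF546 (−0.32), and each call was lost for 3 or more choices of a left-out library. By cluster, 9 of 33 genes at 51.57 to 53.58 Mb were higher in WT and 7 in WDM, and 7 of 32 at 19.67 to 24.13 Mb in WT and 0 in WDM. In untreated cytosol 6 of these 32 were already lower in WDM by at least 3 on the log2 scale. Whether the lines differ in the response to tetracycline was not tested. The counts rest on few libraries. The 34 called in WT became 9, 15 and 14 without untreated replicate 1, 2 or 3 and 58, 19 and 13 without treated replicate 1, 2 or 3. The 23 called in WDM became 10, 8 and 11 without untreated replicate 1, 2 or 3 and 15, 14 and 14 without treated replicate 1, 2 or 3. The direction of the count was mainly higher in every one of these fits.

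Arsenite is a stressor that triggers stress granules. In cytosol 27 of 192 ZNF genes were higher and 5 lower with arsenite than with tetracycline alone in WT, against 13.7% and 15.4% of all genes. In WDM 38 were higher and 3 lower, against 14.1% and 14.8%. The share higher (14.1% in WT, 19.8% in WDM) was thus near that of all genes in WT, and the share lower (2.6% and 1.56%) was under it in both lines. Median log2 differences were 0.06 in WT and 0.16 in WDM, beside −0.02 and −0.00 over all genes. The other 229 ZNF genes tested had 31 higher and 7 lower in WT and 38 and 3 in WDM, and the other protein-coding genes of chromosome 19 had 64 and 78, and 63 and 127, of 713. Shared between the lines were 21 higher genes, 77.8% of those in WT and 55.3% of those in WDM, and 1 lower gene, ZNF724.

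ZNF296, a zinc-finger gene without a KRAB domain, was highest in log2 difference in both lines. It read 0.886, 0.887 and 0.567 CPM without and 2.72, 2.06 and 2.14 CPM with arsenite in WT, a log2 difference of 1.42 (SE 0.323, edgeR adjusted p = 0.00342). In WDM it read 2.76, 1.11 and 1.69 CPM and then 4.59, 3.10 and 4.21 CPM, a log2 difference of 1.06 (adjusted p = 0.00524). All arsenite libraries of ZNF296 lay above all others of the line, at low levels throughout. ZNF574 read 22.4, 16.3 and 15.1 CPM without and 30.1, 25.5 and 28.7 CPM with arsenite in WT, and 23.0, 15.0 and 20.6 and then 39.6, 33.9 and 32.4 CPM in WDM. Its log2 difference was 0.52 in WT and 0.77 in WDM, again without overlap.

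Other genes that rose in cytosol were ZNF610 (log2 difference 0.55 in WT, 0.50 in WDM), ZNF577 (0.35 and 0.68), the pseudogene ZNF137P (0.68 in WT, 10.4% of its exon length shared), ZNF579 (0.54 in WT) and ZNF66 (0.70 in WDM). The clearest fall was that of ZNF714, which read 113.2, 117.0 and 111.7 CPM without and 89.5, 90.4 and 89.0 CPM with arsenite in WT, a log2 difference of −0.48 (SE 0.081, edgeR adjusted p = 0.000302). The WT groups of ZNF714 stood well apart with little spread, and it was not called lower in WDM. ZNF724 had log2 differences of −0.32 in WT and −0.49 in WDM, with 44.7% of its exon length shared with another gene. In WDM ZNF699 had −0.51 and ZNF726 −0.31, and the ZNF726 call was lost under most alternatives. The total of 32 called in WT became 17 and 15 without arsenite replicate 1 or 2 and 20 without tetracycline replicate 3. With library totals alone as the scaling, the split was 58 higher and 1 lower in WT and 62 and 2 in WDM, and that scaling moved the median of all genes in WT to 0.11.

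**Figure D4:**
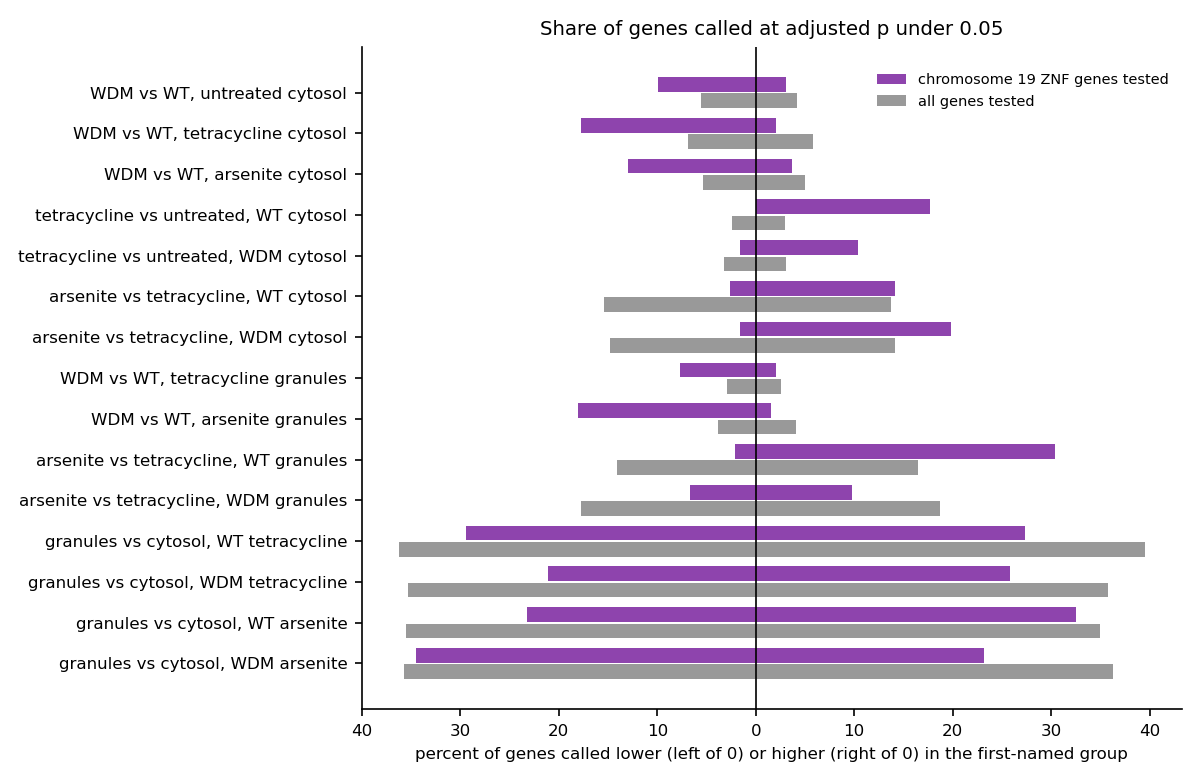
Percent of the tested ZNF genes of chromosome 19 (purple) and of all genes tested (grey) called higher (right of 0) or lower (left of 0) in the group named first, for the 15 pairwise comparisons. The ZNF genes exceed all genes on the lower side in the comparisons of the lines (17.7% against 6.84% in tetracycline cytosol) and on the higher side with tetracycline (17.7% against 2.93% in WT).

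Between fractions the called ZNF genes lay on both sides. In WT cells given tetracycline 53 of 194 were higher and 57 lower in the granule fraction than in cytosol, against 39.5% and 36.2% of all genes. In WDM cells given tetracycline the numbers were 50 and 41 (35.8% and 35.3%). With arsenite they were 63 and 45 in WT (35.0% and 35.5%) and 45 and 67 in WDM (36.3% and 35.7%). Medians were −0.02, 0.04, 0.09 and −0.12 on the log2 scale in that order, beside 0.07, 0.02, 0.05 and 0.06 over all genes. Of the other protein-coding genes of the chromosome, 160 were higher and 369 lower in WT with tetracycline. With tetracycline the lines shared 41 higher genes (77.4% of those in WT, 82.0% in WDM) and 39 lower genes (68.4% and 95.1%), and with arsenite 41 (65.1% and 91.1%) and 39 (86.7% and 58.2%). There is no control pulldown among the groups, so binding to the resin and content of the granules cannot be told apart.

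The neighbours ZNF264, ZNF805 and ZNF460 in the last cluster were much higher in granules than in cytosol. ZNF460 (chr19:57280051-57294069) read 214.9, 183.8 and 176.0 CPM in WT arsenite cytosol and 1182, 954.9 and 938.1 CPM in the matching granules, a log2 difference of 2.43 (SE 0.234, edgeR adjusted p = 3.64e-10). With tetracycline alone it read 225.8, 135.8 and 127.2 CPM and 718.7, 634.9 and 340.0 CPM, a log2 difference of 1.76. In WDM the log2 difference of ZNF460 was 1.74 without and 1.81 with arsenite. All granule libraries lay above all cytosol libraries of the same cells. ZNF805 had log2 differences of 1.30, 1.67, 2.42 and 2.03 (WT and WDM with tetracycline, then WT and WDM with arsenite) and ZNF264 1.16, 1.36, 2.07 and 1.82. ZNF805 and ZNF264 are the same pair that rose with tetracycline in cytosol.

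ZNF536 (chr19:30228290-30713538), a neural zinc-finger gene with long introns, read 130.9, 72.84 and 68.82 CPM in WT tetracycline cytosol and 418.0, 574.4 and 477.5 CPM in granules, a log2 difference of 2.40 (SE 0.212). It was 1.96, 1.60 and 1.62 in the other 3 comparisons in the same order as above. ZNF66 had 2.05, 1.69, 1.45 and 1.10. The libraries of ZNF536 and ZNF66 did not overlap between fractions in any of the 4. ZNF91, named after its values were seen, had log2 differences of 1.63, 1.53, 1.66 and 1.27. ZNF208 was higher by 1.71 in WT with tetracycline, ZNF699 by 1.70 in WT and 1.32 in WDM with arsenite, and ZNF865 by 1.63 in WDM with arsenite.

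ZNF428 (chr19:43607224-43619629), among the most abundant in cytosol, was much lower in granules. It read 86.2, 87.7 and 91.2 CPM in WT tetracycline cytosol and 20.0, 16.1 and 16.4 CPM in granules, a log2 difference of −2.39 (SE 0.179, edgeR adjusted p = 1.43e-12). In the other 3 comparisons it was −2.22, −2.70 and −2.50. Cytosol stood 5.25-fold and 4.65-fold over granules with tetracycline (WT and WDM) and 6.48-fold and 5.67-fold with arsenite, with all libraries of ZNF428 apart. ZNF585B had a log2 difference of −1.76 in WT and −1.94 in WDM with tetracycline, but 92.4% of its exon length lies inside another gene and 10.1% in its exons. ZNF358 had −1.51, −1.63, −1.02 and −1.04, with 20.1% of its exon length shared. ZNF784 had −1.38 in WT tetracycline, ZNF524 −1.33 in WDM tetracycline and −1.18 in WT arsenite, and ZNF579 −1.17 in WT arsenite. In WDM arsenite ZNF302 had −1.39, ZNF582 −1.35 and ZNF181 −1.35. ZNF146, the most abundant member, had −0.97 and −0.75 with tetracycline and −0.56 in WDM with arsenite, and was not called in WT with arsenite.

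Markers of other compartments differed between the fractions, the mitochondrial ones mainly without arsenite. The same 6 nuclear RNAs summed to 2340 to 3700 CPM in granules, above every cytosol library. Among them RN7SK had 0 and MEG3 11 counts in all. Mitochondrial RNA summed to 436 to 3180 CPM in granules and 521 to 1260 CPM in cytosol. Of 6 mitochondrial RNAs, 4 in WT and 6 in WDM were called higher in granules with tetracycline alone, and 0 and 1 with arsenite. Across the ZNF genes the Spearman correlation of the granule difference with intron length was 0.28, 0.36, 0.24 and 0.27 in the 4 comparisons, beside 0.51, 0.53, 0.48 and 0.44 over all genes. With exon length it was 0.23, 0.29, 0.32 and 0.29 over the ZNF genes. These are correlations across genes of the same libraries, given as a description, and the part of nuclear RNA in the fraction difference was not tested. An offset for GC content in each library changed the splits to 39 higher and 75 lower, 33 and 63, 65 and 50, and 54 and 53.

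**Figure D5:**
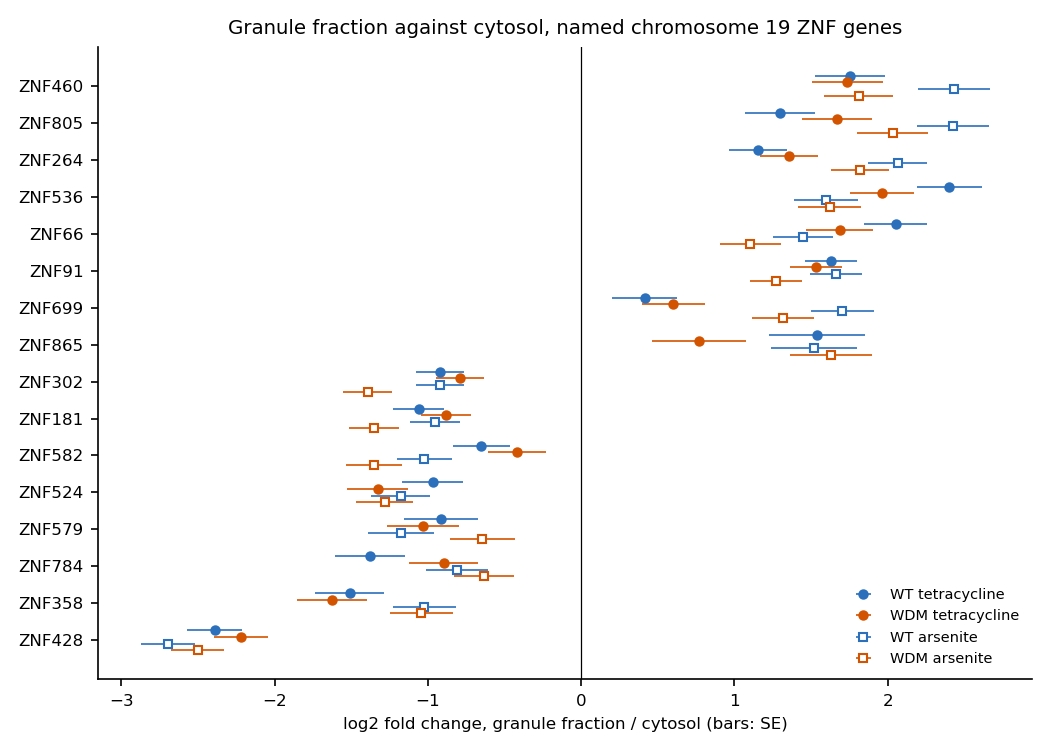
Log2 fold change of the granule fraction over cytosol with its SE for 16 ZNF genes, for WT (blue) and WDM (orange) cells with tetracycline (filled circles) or tetracycline and arsenite (open squares). ZNF460, ZNF805 and ZNF264 lie right of 0 and ZNF428 farthest left of 0 in all 4 comparisons.

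Within granules the genes called with arsenite were nearly all higher in WT, and on both sides in WDM. In WT 59 of 194 ZNF genes were higher and 4 lower with arsenite, against 16.5% and 14.1% of all genes, with a median log2 difference of 0.29. In WDM 19 were higher and 13 lower, against 18.7% and 17.7%, with a median of 0.08. The median of all genes was −0.03 in WT and 0.01 in WDM. Of the higher genes 15 were shared, 25.4% of those in WT and 78.9% of those in WDM, and of the lower genes 3 (75.0% and 23.1%). With an offset for GC content in each library the WDM split was 40 higher and 5 lower, and with library totals alone 30 and 7. Mitochondrial RNA in the same granules summed to 1560 to 3180 CPM without and 436 to 1110 CPM with arsenite in WT, without overlap, and to 873 to 2610 and 778 to 1300 CPM in WDM, with overlap. Its part in the ZNF differences was not tested, nor was whether the lines differ in this response. The 63 called in WT became 28 without tetracycline replicate 3 and 29 without arsenite replicate 1. The 32 called in WDM became 21 and 17 without tetracycline replicate 2 or 3 and 21 without arsenite replicate 3.

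In WT granules ZNF677 read 14.4, 9.37 and 8.54 CPM without and 26.5, 21.1 and 27.8 CPM with arsenite, a log2 difference of 1.30 (SE 0.22, edgeR adjusted p = 0.00011). ZNF813 read 31.8, 27.2 and 24.0 CPM and then 65.5, 44.4 and 56.8 CPM, a log2 difference of 1.05 (adjusted p = 0.000258). The arsenite libraries of both genes lay above all the others. ZNF805 rose by 1.25 and ZNF699 by 1.18 on the log2 scale. Those that fell were ZNF321P (−1.10, with 40.2% of its exon length shared with a readthrough gene), ZNF418 (−0.99) and ZNF224 (−0.42, a call lost for 4 choices of a left-out library).

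In WDM granules ZNF574 read 13.1, 15.9 and 17.7 CPM without and 34.7, 48.9 and 51.7 CPM with arsenite, a log2 difference of 1.47 (edgeR adjusted p = 6.18e-06). ZNF296 rose by 1.18, ZNF628 by 1.16 and ZNF865 by 1.11. ZNF574 and ZNF296 were thus higher with arsenite in both fractions of WDM cells. ZNF224 read 116.9, 135.9 and 131.7 CPM without and 85.0, 83.5 and 81.2 CPM with arsenite, a log2 difference of −0.69 (adjusted p = 0.000608). Its arsenite libraries lay below the others with little spread. ZNF493 had −0.90, ZNF321P −0.77 and ZNF404 −0.68, and 17.6% of the exon length of ZNF404 is shared with another gene. With an offset for GC content in each library ZNF493 and ZNF404 were no longer called, and the ZNF321P call was lost when any 1 of the 3 tetracycline libraries was left out. Of the 13 lower genes 6 were in the cluster at 43.53 to 45.08 Mb, which holds ZNF224 and ZNF404 and had 18 genes tested.

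All 263 ZNF genes, tested or not, had a median GC content of 42.0%. It was 59.3% over the other protein-coding genes of the chromosome, also tested or not, and 47.7% over all genes tested in cytosol. The Spearman correlation of GC content with the arsenite response in WDM granules was 0.32 over all genes and 0.34 over the ZNF genes, and with the line difference in arsenite granules 0.36 and 0.32. For the line difference in arsenite granules the GC offset left 2 higher and 25 lower.

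Whether the arsenite response differed between granules and cytosol was tested as an interaction. In WT 26 ZNF genes were higher and 14 lower, meaning a response in granules above or below that in cytosol, against 12.0% and 19.4% of all genes. In WDM 4 were higher and 22 lower, against 7.66% and 16.5%. The median was 0.05 in WT and −0.16 in WDM, beside −0.21 and −0.17 over all genes. With the GC offset the split was 38 and 8 in WT and 15 and 4 in WDM, so the WDM split turned round, and with library totals alone it was 8 and 13 in WDM. RLE factors gave 31 and 9 in WT. The 40 called in WT became 25 without tetracycline cytosol replicate 2, 26 and 23 without arsenite cytosol replicate 1 or 2, and 23 without tetracycline granule replicate 3. The 26 called in WDM became 16 without tetracycline cytosol replicate 2, 15 and 15 without arsenite cytosol replicate 2 or 3, and 16 without arsenite granule replicate 3. In WT the smallest p among genes at 2 CPM or more belonged to ZNF813 (1.29, SE 0.227) and ZNF677 (1.53, SE 0.282), and in WDM to ZNF224 (−0.91, SE 0.168) and ZNF404 (−1.18, SE 0.224).

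Some partners of KRAB zinc-finger proteins were called between the lines. Of 20 listed cofactor genes, chosen as the core KRAB repression machinery and its close associates, 19 were tested in cytosol. In WDM 0 were higher and 2 lower in untreated cytosol, 1 and 2 in tetracycline cytosol, and 1 and 2 in arsenite cytosol. Of all genes 9.78%, 12.6% and 10.4% were called there. UHRF1, which guides maintenance of DNA methylation, was lower in WDM, with log2 differences of −0.57 (SE 0.106), −0.58 and −0.49 in untreated, tetracycline and arsenite cytosol. SCAND1, a SCAN-domain protein, had log2 differences of −0.56, −0.58 and −0.81 there and −0.75 in arsenite granules. CHD3, an ATPase of the NuRD complex, was higher by 0.43 and 0.54 in tetracycline and arsenite cytosol and 0.62 in arsenite granules. The corepressor TRIM28 and SETDB1 were called in none of the 5 comparisons of the lines. In tetracycline granules 0 of the 20 were called, beside 5.55% of all genes. In arsenite granules 1 was higher and 1 lower, beside 7.95% of all genes called.

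Tetracycline went with higher UHRF1 (log2 difference 0.57 in WT, 0.56 in WDM) and, in WT, HDAC1 (0.32). Arsenite in cytosol went with higher MORC2, a partner of the HUSH complex, by 0.41 in WT and 0.44 in WDM. The HP1 genes CBX1 (−0.27 and −0.34) and CBX3 (−0.35 and −0.34) and the modifier SUMO2 (−0.32 and −0.32) were lower with arsenite in both lines. Between fractions 8, 6, 7 and 7 of the 20 were higher in granules and 9, 9, 10 and 11 lower. Of all genes 39.5%, 35.8%, 35.0% and 36.3% were higher and 36.2%, 35.3%, 35.5% and 35.7% lower. TRIM28 was lower in granules in all 4 comparisons, with log2 differences of −0.87, −0.81, −0.65 and −0.46, as were CBX1, CBX3, HDAC1, HDAC2, SUMO2, ZNF274 and SCAND1. ZNF274, a KRAB zinc-finger gene of the same chromosome that is itself among the 263, had −0.33, −0.36, −0.52 and −0.48. Higher in granules in all 4 were CBX5 (0.71, 0.67, 1.45 and 0.95), ATF7IP, a SETDB1 partner (1.07, 0.93, 0.72 and 0.46), MORC2 and DNMT1. Within granules CBX5, CHD3 and UHRF1 were higher with arsenite in WT, and in WDM 6 of the list were higher, TRIM28 among them, and 3 lower. Of all genes 16.5% were higher and 14.1% lower in WT, and 18.7% and 17.7% in WDM.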

How the data were processed

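Values are raw gene counts that the authors deposited in 1 table of 30 libraries, with no unit other than counts. Per the submitters' processing notes, the steps used Trimmomatic, STAR, Picard and featureCounts with build GRCh38. Settings and versions are not given in the sources used here. Per the labels' protocols, libraries were stranded total RNA after ribosomal depletion. Libraries were grouped by their labels. The 263 members, the gene lists and the tests were chosen with earlier results of these data known.

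Counts were tested with edgeR 4.0.16 (limma 3.58.1, R 4.3.3; robust quasi-likelihood F-test, TMM factors, filterByExpr with a minimum count of 10 and a minimum total of 15, group means), in 3 fits, with 15 pairwise comparisons and 5 interactions. The main fits had no replicate block. SE is the log2 fold change divided by the square root of F. CPM uses the column total. Scripts were tested on simulated data. Alternatives were DESeq2 1.42.0, other scalings, no low-count filter, a replicate block, the compared groups alone, and each library left out. GC offsets were added after seeing the data. Overlaps used bedtools 2.31.1 on GENCODE 44, in which all 263 genes were found, 240 with the same start and end. Promoter alignments used Biopython 1.88. Intervals are exact binomial at 95%. Other steps used Python 3.11.15, pandas 2.3.3, numpy 2.4.6, scipy 1.17.1 and matplotlib 3.10.9.

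Named genes were, for each pairwise comparison, up to 4 higher and 4 lower members at an adjusted p under 0.05, with a mean of 2 CPM or more in the higher group and libraries that did not overlap, by size of the log2 fold change. The 5 most abundant per kilobase, 2 per interaction and the cofactor list were added (1 cofactor is not reported here), and other names were chosen after their values were seen.

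Replicate counts differed by more than sampling noise in every pair (chi-square per degree of freedom 1.63 to 40.7). Numbers paired the samples, by a correlation of deviations over 0.1 for all 3 numbers, for granules against cytosol in WDM arsenite cells only (0.35, 0.56 and 0.31), where the replicate block gave 115 calls beside 112.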

Additional observations from a re-analysis of the deposited data

Results flagged for a closer look

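The test of whether the arsenite response differed between granules and cytosol passed for 40 of 194 ZNF genes in WT and for 26 in WDM (edgeR, adjusted p under 0.05), beside 31.4% and 24.2% of all genes. ZNF813 (log2 difference of the responses 1.292) and ZNF677 (1.527) had the smallest p in WT among genes at 2 CPM or more. In WDM these were ZNF224 (−0.9119) and ZNF404 (−1.179). ZNF677 rose with arsenite in WT granules and was not called in WT cytosol, while ZNF404 rose in cytosol of both lines and fell in WDM granules. The fractions differ in nuclear RNA and, mainly without arsenite, in mitochondrial RNA. The part of either in these differences was not tested.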

How the results depend on the processing

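The log2 difference of no named gene changed sign under the alternatives run. With library totals alone, 59 ZNF genes were called for arsenite in WT cytosol and 64 in WDM cytosol. Fitting only the groups compared gave 57 for the lines in untreated cytosol, 16 in tetracycline cytosol, 10 for tetracycline in WT and 13 for arsenite in WDM cytosol. Without the low-count filter the WDM interaction of arsenite and fraction gave 13 (6 higher, 7 lower). GC offsets with the replicate block gave 57 for tetracycline in WT (56 higher, 1 lower). GC offsets alone turned the split of the WDM interaction to 15 higher and 4 lower. The cause of these shifts was not tested. Leaving out 1 library gave 18 to 20 calls for the lines in untreated cytosol, 27 to 61 in tetracycline cytosol, 24 to 31 in arsenite cytosol, 15 to 22 in tetracycline granules and 20 to 51 in arsenite granules. It gave 9 to 58 and 8 to 15 for tetracycline in WT and WDM, 15 to 45 and 30 to 36 for arsenite in cytosol, and 28 to 66 and 17 to 33 in granules. For granules against cytosol it gave 89 to 108, 71 to 87, 95 to 108 and 96 to 108, for the interactions of arsenite and fraction 23 to 46 and 15 to 26, and 0 for the other 3. The replicate block gave 28, 45, 35, 18 and 30 for the lines, 48 and 29 for tetracycline, 42, 49, 59 and 30 for arsenite in cytosol and granules, 46 and 29 for these interactions, and 0 for the other 3; the numbers pair the samples in 1 comparison only. DESeq2 gave 25, 37, 29, 21 and 47 for the lines. With a library left out, named members kept the call 667 times and lost it 89 times. Under the other alternatives they kept it 890 times and lost it 38 times, among them ZNF677 in tetracycline granules between the lines (replicate block and both GC offsets), ZNF444 in arsenite granules (no low-count filter, replicate block and both GC offsets), ZNF296 between the lines in arsenite cytosol (RLE factors, library totals alone, DESeq2 and the compared groups alone) and ZNF724 and ZNF726 with arsenite (library totals alone and no low-count filter, among others). Lost calls, each under at least 1 left-out library, were ZNF333, ZNF677, ZNF542P, ZNF296, ZNF444 and ZNF56 between the lines. With tetracycline they were ZNF257, ZNF676 and ZNF677 in WT and ZNF302, ZNF493, ZNF546, ZNF776 and ZNF880 in WDM (the last pair only without untreated replicate 2). With arsenite they were ZNF137P, ZNF579, ZNF610 and ZNF724 in WT cytosol, ZNF66 and ZNF726 in WDM cytosol, ZNF224 in WT granules and ZNF321P in granules of both lines. Between fractions it was ZNF208 in WT with tetracycline, without granule replicate 3. Low counts leave 68 members untested.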
